A study of Mus musculus with 5 samples.

Results

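Here 42 genes of the interferon response were examined in brain dendritic cells (DCs) and bone marrow monocytes of the mouse. They were taken by name: antiviral effectors, nucleic acid sensors, enzymes of ubiquitin and ADP-ribose transfer, interferon-inducible GTPases and the chains of the interferon receptors. A gene was measured where at least 1 probe set carried its symbol and no other, which held for 41 of the 42 (72 probe sets) among 18193 genes measured in all. Ifi44 was the member with no such probe set and has no value here. The brain DC group held 2 Affymetrix arrays of Lin- CD45hi CD11c+ cells, from C57BL/6 mice that were given B16-Flt3L tumour cells under the skin 12 days before the organs were taken. B16-Flt3L is a mouse melanoma line that releases Flt3 ligand, a growth factor that expands dendritic cells, so these are brain DCs of mice under that growth factor and with a tumour. Monocytes from bone marrow were on 3 arrays, sorted as SSClo CD11bhi CD115+ cells from C57BL/6 mice, for which the labels name no treatment. All mice were female and 6 to 8 weeks old.

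Interferons are secreted proteins that put cells into an antiviral state. Type I interferons bind a receptor made of the Ifnar1 and Ifnar2 chains, interferon gamma binds one made of Ifngr1 and Ifngr2, and Janus kinases on these chains activate STAT transcription factors. The STAT complexes bind interferon-stimulated response elements (ISRE) and gamma-activated sites (GAS) near the induced genes. Mature immune cells hold a low level of many of these transcripts without infection, and the level differs with cell type and tissue.

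The deposited values are on a log2 scale and centred within each probe set, so they compare arrays for a gene but do not give a gene's absolute level, and no gene's level can be set against another's. A gene value is the mean of its probe sets. Differences are log2, brain DC less monocyte, each with its SE from limma fitted over all genes (n = 2 and 3 arrays), and a gene was called at a Benjamini-Hochberg adjusted p under 0.05 over all genes. The labels do not say that arrays of a group came from separate animals, so these p-values measure the spread between the arrays, which may be technical. In sorted populations, fewer cells of a type with the transcript and less of it per cell cannot be told apart. Cell type, tissue, tumour and Flt3 ligand treatment separate the groups in the same way, and their effects cannot be told apart.

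The labels were checked against marker genes. All 9 dendritic cell markers were higher in brain DCs (median 3.85) and 8 of 9 measured monocyte markers were lower, the exception being Cd14 (2.31). Markers of some other cells differed between the groups too. Over all genes 16.9% were called higher in brain DCs and 16.9% lower. All 10 measured microglia markers were higher in brain DCs. Their list medians were 2.42 and 1.98 in those arrays and between -0.57 and -0.38 in the monocyte arrays. Also higher were 4 of 9 measured natural killer and T cell markers and 11 of 12 immediate early genes. So were 3 of 7 markers of plasmacytoid dendritic cells. Of choroid plexus, glia and endothelium 3 of 9 were higher, Ttr (7.22), Cldn5 (2.56) and Pecam1 (0.59), and 6 were not called. Siglech is on both the microglia and the plasmacytoid list. In the other direction, 5 of 10 measured neutrophil and granule genes were lower in brain DCs, Cd177 (-5.67), Mmp8 (-4.76), Mpo (-4.65), Prtn3 (-4.53) and Elane (-2.38), and S100a9 (1.41) was higher. The list's medians were 0.99 and 1.22 in the brain DC arrays and 1.64, 2.87 and 3.02 in the monocyte arrays. Of the B cell list, 1 of 4 was higher. Probe sets for the 5′ end of the control transcripts Actb and Gapdh were higher in brain DCs by 3.02 and 2.80, whereas those for the 3′ end differed by -0.41 and -0.12. The 5′ minus 3′ value of Actb was 0.16 and 0.31 in the brain DC arrays and between -3.99 and -1.60 in the monocyte arrays, with no overlap. For the controls Tfrc and Pcx the corresponding shifts were 0.10 and 0.21. The 24 probe sets of poly-A spike-in RNA were all higher in brain DCs, by a median of 2.59. The part of each of these in the differences below was not tested.

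The stretches before the start of 8 members are shown because these genes carry the contrasts described below: GTPases of the same family that were lower or not called, and effectors that were higher or not called. They are the 160 bases before the annotated start, read 5′ to 3′ on the gene's strand, from RefSeq with build GRCm38.p6. Capitals mark an ISRE-like match (GAAA, any 2 bases, then GAAA, on either strand) or a GAS-like match, TTCNNNGAA, which is its own reverse complement. Matches that overlap run together in capitals.
Irgm2, chr11:58214817-58214976, plus strand: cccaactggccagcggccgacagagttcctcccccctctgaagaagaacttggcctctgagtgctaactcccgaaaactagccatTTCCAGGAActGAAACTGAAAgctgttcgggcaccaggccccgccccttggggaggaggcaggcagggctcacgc
Igtp, chr11:58199396-58199555, plus strand: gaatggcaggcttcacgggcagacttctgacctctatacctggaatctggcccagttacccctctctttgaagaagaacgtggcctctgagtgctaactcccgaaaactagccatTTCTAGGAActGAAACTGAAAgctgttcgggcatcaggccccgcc
Irgm1, chr11:48871421-48871580, minus strand: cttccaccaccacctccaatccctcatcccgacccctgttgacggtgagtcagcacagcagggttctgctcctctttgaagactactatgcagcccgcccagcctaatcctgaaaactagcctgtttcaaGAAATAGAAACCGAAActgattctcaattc
Gbp3, chr3:142559884-142560043, plus strand: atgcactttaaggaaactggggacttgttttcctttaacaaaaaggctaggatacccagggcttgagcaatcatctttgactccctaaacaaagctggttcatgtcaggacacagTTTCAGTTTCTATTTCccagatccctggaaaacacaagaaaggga
Gbp2, chr3:142620503-142620662, plus strand: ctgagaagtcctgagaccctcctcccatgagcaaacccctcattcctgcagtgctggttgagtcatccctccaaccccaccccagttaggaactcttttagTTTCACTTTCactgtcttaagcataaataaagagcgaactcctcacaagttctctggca
Ifit3, chr19:34583369-34583528, plus strand: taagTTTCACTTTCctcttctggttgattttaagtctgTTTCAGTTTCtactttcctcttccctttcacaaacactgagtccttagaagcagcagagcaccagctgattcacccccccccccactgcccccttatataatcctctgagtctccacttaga
Ifit1, chr19:34640729-34640888, plus strand: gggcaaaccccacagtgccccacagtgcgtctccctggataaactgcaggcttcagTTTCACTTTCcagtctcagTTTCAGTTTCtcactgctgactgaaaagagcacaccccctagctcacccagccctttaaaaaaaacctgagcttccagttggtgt
Ifitm2, chr7:140955962-140956121, minus strand: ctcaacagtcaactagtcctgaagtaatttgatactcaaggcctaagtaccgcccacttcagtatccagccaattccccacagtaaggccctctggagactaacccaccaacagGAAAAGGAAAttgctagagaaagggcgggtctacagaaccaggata
In these letters Igtp and Irgm2, which lie side by side on chromosome 11 with no coding gene between them, hold a GAS-like match followed closely by an ISRE-like match. The ISRE-like match begins 34 bases before the start in Igtp and 64 in Irgm2, and with the windows shifted by 30 bases against each other 184 of 270 bases were identical (68.1%). Irgm1 and Gbp3 each hold 2 overlapping ISRE-like matches, and Ifit1 and Ifit3 each hold 2 separate ones on the opposite strand. RefSeq windows of 300 bases around the start were at hand for 31 of the 42 members. An ISRE-like match lay in the window of 16 of the 31, where 3.99% of all 27025 genes with a window have one, and a GAS-like match in 11 of the 31, where 9.55% of all genes have one. Among measured members with a window, the ISRE-like letters were found in 3 of 7 called higher, 5 of 8 called lower and 8 of 15 not called. These letters did not part the called from the uncalled members, and a match is a description of the sequence, not a site shown to be used.

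The interferon genes did not move as a block. Among the 41 measured members, brain DCs had the higher value in 11 and the lower in 9, and 21 showed no call, so 48.8% were called where the background over all genes was 33.8% (16.9% higher and 16.9% lower). Their median difference was 0.05, beside 0.09 over all genes, and its sign depended on single arrays: it was -0.09 without brain DC replicate 2, -0.11 without monocyte replicate 2, 0.19 without brain DC replicate 1 and 0.25 without monocyte replicate 1. Brain DC and monocyte arrays did not overlap in 26 members (63.4%), beside 60.2% of all genes. Without brain DC replicate 2 the number of higher members was 6.

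**Figure D1:**
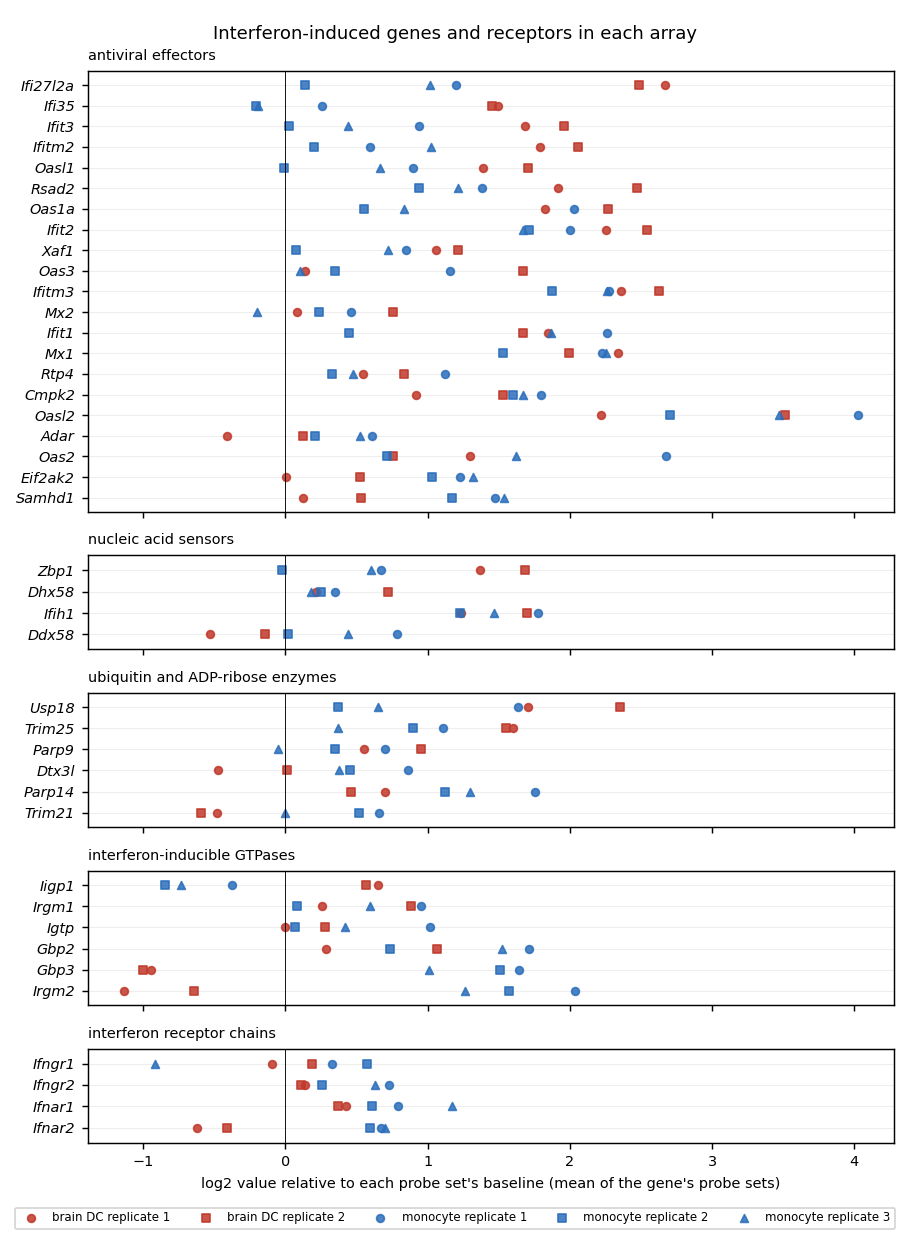
Each row is a member and each point its log2 value in 1 array, relative to the baseline of its probe sets (red, brain DC; blue, monocyte; the shape gives the replicate), in 5 panels by role. Red and blue points are apart for Irgm2, Gbp3, Ifnar2 and Ifi35, and interleaved for Ifit1, Mx1 and Oas2.

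Most antiviral effectors that changed were higher in brain DCs. Among the 21 measured, 7 rose, 2 fell and 12 showed no call, the median difference being 0.35. That is 42.9% called, beside 33.8% of all genes (16.9% higher and 16.9% lower). The counts higher and lower were 8 and 2 without monocyte replicate 1 and 6 and 3 without monocyte replicate 2. With each probe set tested they were 8 and 4. Without brain DC replicate 2, which leaves 1 array in that group, the split was narrower. The median was 0.60 without monocyte replicate 1, 0.27 without monocyte replicate 2 and 0.41 without monocyte replicate 3. It was 0.59 without brain DC replicate 1 and 0.32 without brain DC replicate 2. Ifi27l2a, a small membrane protein strongly induced by interferon, was at 2.67 and 2.49 in the brain DC arrays and at 1.20, 0.14 and 1.02 in the monocyte arrays. The arrays did not overlap, and the difference was 3.47-fold (1.80 ± 0.30 SE, limma adjusted p = 0.00311). Ifi35, an interferon-induced leucine zipper protein, was at 1.49 and 1.46 in brain DCs against 0.26, -0.20 and -0.20 in monocytes. This is a 2.88-fold difference with close replicates in brain DCs (1.52 ± 0.17, limma adjusted p = 5.53e-04).

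Ifit3 belongs to a family of proteins that bind viral RNA ends and block its translation. Its values were 1.68 and 1.96 in brain DCs and 0.94, 0.02 and 0.44 in monocytes, 2.55-fold apart with no overlap (1.35 ± 0.26, limma adjusted p = 0.00566). Ifit2 was higher by a smaller amount, at 2.25 and 2.54 against 2.0, 1.71 and 1.67 (0.60 ± 0.16, limma adjusted p = 0.0235). The call ended without brain DC replicate 2 (0.46), without monocyte replicate 2 (0.56), without monocyte replicate 3 (0.54) and with the replicate block (0.54), with limma adjusted p from 0.0105 to 0.116 over the alternatives. The third family member, Ifit1, was at 1.85 and 1.67 in brain DCs and at 2.26, 0.44 and 1.87 in monocytes. There the monocyte arrays lay on either side of the brain DC arrays, and the difference of 0.23 ± 0.47 was not called. Near-identical copies such as Ifit3b lie beside these genes, and whether a probe set also binds a copy was not examined.

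Interferon-induced transmembrane proteins stop viruses from fusing with the cell. Ifitm2 was at 1.79 and 2.06 in brain DCs and at 0.60, 0.20 and 1.02 in monocytes. It was 2.49-fold higher with no overlap (1.32 ± 0.24, limma adjusted p = 0.00443). Ifitm3 was at 2.36 and 2.63 against 2.28, 1.88 and 2.26, a difference of 0.35 ± 0.17 that was not called (limma adjusted p = 0.153), although its arrays did not overlap either. Rsad2, which encodes viperin, an enzyme that makes a chain-terminating nucleotide, was higher by 1.01 ± 0.20 (limma adjusted p = 0.00766). With the median of its 3 probe sets it missed the threshold (0.91, limma adjusted p = 0.0562, the highest over the alternatives, where the lowest was 0.0047). Its neighbour Cmpk2, a mitochondrial nucleotide kinase on the same chromosome with no coding gene between them, was at -0.47 and not called. It was called lower without brain DC replicate 2 (-0.78, limma adjusted p = 0.0136, the lowest over alternatives that reached 0.515) and was at -0.16 without brain DC replicate 1.

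Oligoadenylate synthetases sense dsRNA and activate an RNA-degrading enzyme. Oasl1, a family member that restrains translation of Irf7, was higher in brain DCs (1.03 ± 0.26, limma adjusted p = 0.0205). Leaving out brain DC replicate 2 ended that call (0.87, limma adjusted p = 0.105, where the lowest over the alternatives was 0.00969). Oas1a (0.91 ± 0.40), Oas3 (0.37 ± 0.46), Oasl2 (-0.53 ± 0.45) and Oas2 (-0.65 ± 0.50) were not called. Their SE was large because the arrays within a group spread widely: Oas2 ranged over 1.96 among the monocyte arrays and Oas1a over 1.48. Without monocyte replicate 1, Oas1a was called higher (1.36, limma adjusted p = 0.0049, the lowest over alternatives that reached 0.376). The GTPase genes Mx1 and Mx2 were at 0.16 and 0.25 and not called, as were Rtp4 (0.05) and Xaf1 (0.59).

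The effectors that were lower in brain DCs were Samhd1 and Eif2ak2. Samhd1, which removes the nucleotides that viral DNA synthesis needs, was at 0.12 and 0.53 in brain DCs and at 1.47, 1.17 and 1.53 in monocytes. It was 2.09-fold lower with no overlap (-1.06 ± 0.18, limma adjusted p = 0.00324), and each of its 5 probe sets was below 0, from -1.86 to -0.61. Eif2ak2, the dsRNA-activated kinase PKR that stops translation, was at 0.00 and 0.52 against 1.23, 1.03 and 1.32, which is 1.90-fold lower (-0.93 ± 0.18, limma adjusted p = 0.00691). Its 3 probe sets differed, at -1.50, -1.12 and -0.17, and the last of these was not called. Adar, which edits adenosine in dsRNA, differed by -0.59 ± 0.20 and missed the threshold (limma adjusted p = 0.056). It passed with plain probe sets only (-0.80), with arrays centred on their median (-0.63), with each probe set tested, and without brain DC replicate 2 (-0.86) or monocyte replicate 2 (-0.71), with limma adjusted p from 0.0205 to 0.563 over the alternatives.

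**Figure D2:**
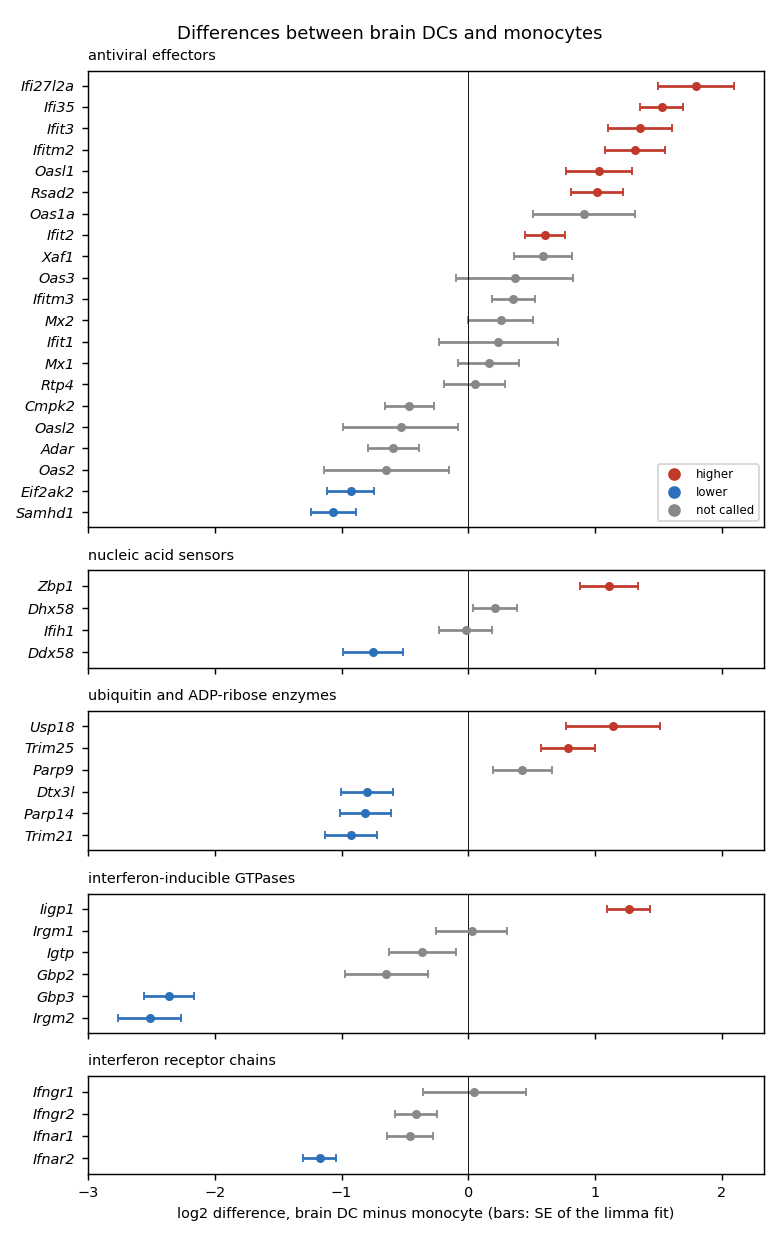
Each point is a member's log2 difference (brain DC minus monocyte) and each bar its SE from limma, coloured by its call, in 5 panels by role. The differences run from -2.51 for Irgm2 to 1.80 for Ifi27l2a, and each panel except that of the receptor chains holds members called in either direction.

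The cytosolic sensors went different ways. Zbp1, which binds Z-form nucleic acids and can start necroptosis, was at 1.37 and 1.68 in brain DCs and at 0.67, -0.02 and 0.60 in monocytes. It was 2.16-fold higher with no overlap (1.11 ± 0.23, limma adjusted p = 0.00826). Its 2 probe sets gave 0.25 and 1.96, and the call was lost with plain probe sets only, which keeps the former (0.25, limma adjusted p = 0.506), and without brain DC replicate 2 (0.95, limma adjusted p = 0.0512), where the lowest over the alternatives was 0.00596. Ddx58, the RNA sensor RIG-I, was at -0.53 and -0.14 in brain DCs and at 0.79, 0.02 and 0.44 in monocytes. The nearest arrays of the groups lay close, and the difference was 1.68-fold (-0.75 ± 0.24, limma adjusted p = 0.0437). That call was lost in 6 of 12 alternatives: the median of its probe sets (-0.77), the replicate block (-0.74), and leaving out replicate 1 (-0.56) or 2 (-0.95) of brain DCs or replicate 1 (-0.56) or 3 (-0.74) of monocytes, with limma adjusted p from 0.0155 to 0.215 over the alternatives. Ifih1, the sensor of long dsRNA, was at -0.02 ± 0.21, and Dhx58, a related helicase without a signalling domain, at 0.21 ± 0.17. Neither was called.

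Of the 6 enzymes that attach or remove ubiquitin, ISG15 or ADP-ribose, 2 were higher, 3 lower and 1 not called. That is 83.3% called in a short list, beside 33.8% of all genes. Usp18, which removes ISG15 and damps type I interferon signalling at its receptor, was at 1.70 and 2.35 in brain DCs and at 1.64, 0.37 and 0.65 in monocytes. Monocyte replicate 1 lay just below the lower brain DC array, and the 2.21-fold difference was just past the threshold (1.14 ± 0.37, limma adjusted p = 0.0487). The call was lost in 7 of 12 alternatives, among them leaving out replicate 1 (1.47) or 2 (0.82) of brain DCs or replicate 2 (0.89) or 3 (1.03) of monocytes, with limma adjusted p from 0.00595 to 0.230 over the alternatives. Trim25, the ubiquitin ligase that activates RIG-I, was at 1.60 and 1.55 against 1.11, 0.90 and 0.37 (0.79 ± 0.21, limma adjusted p = 0.0264). Its 3 probe sets ran from -0.12 to 1.98, and leaving out brain DC replicate 1 (0.76) or replicate 2 (0.81) ended the call, with limma adjusted p from 0.0115 to 0.101 over the alternatives.

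Trim21, an intracellular antibody receptor and ubiquitin ligase, was at -0.48 and -0.59 in brain DCs and at 0.66, 0.52 and -0.00 in monocytes. It was 1.90-fold lower with no overlap (-0.93 ± 0.20, limma adjusted p = 0.0110), with probe sets at -1.79 and -0.06. Without brain DC replicate 2 it was at -0.87 and missed the threshold (limma adjusted p = 0.0539, the highest over the alternatives, where the lowest was 0.00153). Parp14, an ADP-ribosyltransferase, was at 0.70 and 0.46 against 1.76, 1.12 and 1.29 (-0.81 ± 0.20, limma adjusted p = 0.0187). Its call was lost with quantile normalisation (-0.64) and without brain DC replicate 2 (-0.69), with limma adjusted p from 0.00795 to 0.0935 over the alternatives. Dtx3l, the ubiquitin ligase that pairs with Parp9, was at -0.48 and 0.01 against 0.86, 0.46 and 0.37 (-0.80 ± 0.20, limma adjusted p = 0.0209). The call ended without brain DC replicate 1 (-0.55) and without monocyte replicate 1 (-0.65), with limma adjusted p from 0.016 to 0.121 over the alternatives. Parp9, which lies next to Dtx3l with no coding gene between them, differed by 0.42 ± 0.23 and was not called. Without brain DC replicate 2, 1 enzyme of this list was lower in place of 3, and 0 were higher by limma in place of 2; 0 were also higher without brain DC replicate 1, and 1 without monocyte replicate 2 or 3.

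The largest differences among all members were in the interferon-inducible GTPases, which coat and disrupt the vacuoles of intracellular pathogens. Of 6, 1 was higher, 2 lower and 3 not called, where 33.8% of all genes were called (16.9% higher and 16.9% lower). The median difference of the 6 GTPases was -0.51. That median was -0.24 without brain DC replicate 1, -0.28 without monocyte replicate 1, -0.77 without brain DC replicate 2 and -0.76 without monocyte replicate 2. Irgm2, a regulator of the immunity-related GTPases, was at -1.13 and -0.65 in brain DCs and at 2.04, 1.57 and 1.26 in monocytes. The groups lay far apart, and Irgm2 was 5.70-fold lower (-2.51 ± 0.25, limma adjusted p = 3.05e-04). Gbp3, a guanylate-binding protein, was at -0.94 and -1.0 against 1.64, 1.51 and 1.01, which is 5.13-fold lower (-2.36 ± 0.20, limma adjusted p = 1.42e-04). Both calls held in all 12 alternatives. Each gene has 1 probe set, so the alternatives that summarise or test probe sets otherwise left its difference unchanged.

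Among the members, relatives and neighbours of these genes had smaller differences. Outside the members, Gbp7 (-2.28) was lower by about as much as Gbp3 (-2.36). Gbp8 (2.22) was higher and Gbp6 (0.50) not called. Igtp, the neighbour of Irgm2 with the GAS-like and ISRE-like letters shown above, was at -0.00 and 0.28 in brain DCs and at 1.02, 0.07 and 0.42 in monocytes. Its groups overlapped, and the difference of -0.36 ± 0.26 was not called (limma adjusted p = 0.326). Irgm1 was at 0.02 ± 0.28 and Gbp2 at -0.65 ± 0.33, and neither was called. Gbp2 passed the threshold without monocyte replicate 2 (-0.94, limma adjusted p = 0.0425, where the alternatives reached 0.657). Iigp1, an effector GTPase that the regulators hold inactive on the cell's own membranes, went the other way, at 0.65 and 0.57 in brain DCs and at -0.37, -0.85 and -0.74 in monocytes. It was 2.40-fold higher with no overlap (1.26 ± 0.17, limma adjusted p = 0.00116), and its 2 probe sets gave 0.97 and 1.55.

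None of the 4 receptor chains was called higher in brain DCs by limma (0 also at an unadjusted p under 0.05), and 1 was lower (3 at an unadjusted p under 0.05). Over all genes 16.9% were called higher and 16.9% lower. A list of 4 chains is too short to set its called counts apart from those shares. Ifnar2, the chain of the type I receptor with the higher affinity for interferon, was at -0.62 and -0.41 in brain DCs and at 0.67, 0.60 and 0.70 in monocytes. It was 2.25-fold lower with no overlap (-1.17 ± 0.13, limma adjusted p = 5.06e-04). Its 3 probe sets differed, at -2.15, -1.34 and -0.03. The other type I chain, Ifnar1, was at 0.43 and 0.37 against 0.79, 0.61 and 1.17. Its arrays did not overlap, but the difference of -0.46 ± 0.18 was not called (limma adjusted p = 0.0879), with probe sets at -0.97 and 0.05.

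Of the interferon gamma receptor, Ifngr2, the signalling chain, was at 0.14 and 0.11 in brain DCs and at 0.73, 0.26 and 0.63 in monocytes. The groups did not overlap, and the difference was not called (-0.41 ± 0.17, limma adjusted p = 0.0955). Without monocyte replicate 2 it passed (-0.55, limma adjusted p = 0.0288, where the alternatives reached 0.241), which made 2 lower chains. Ifngr1, the ligand-binding chain, was at -0.10 and 0.18 in brain DCs and at 0.33, 0.58 and -0.92 in monocytes. Monocyte replicate 3 lay below all other arrays here, and the difference was 0.05 ± 0.40.

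Probe sets of a gene often disagreed. Of the 20 members with more than 1 probe set, 6 had probe sets on both sides of 0 and 12 had a spread above 1 on the log2 scale, while the probe sets of 2, Ifi35 and Iigp1, were all called in the same direction. Xaf1, an inhibitor of an apoptosis inhibitor, had a probe set called higher at 1.73 and another at -0.55. Cmpk2 had a probe set called lower at -1.38 and another at 0.44. Probe sets can read different ends or isoforms of a transcript; which end each reads was not examined here. When each of the 72 probe sets was tested by limma, 15 were called higher and 18 lower. The share called over all 34945 probe sets is not given here, so these counts have no background beside them. No member had probe sets called in both directions. Outside the members this did occur, as in the pathway genes Trim12a (-1.40 and 0.78) and Trim34a (-0.63 and 0.79).

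**Figure D3:**
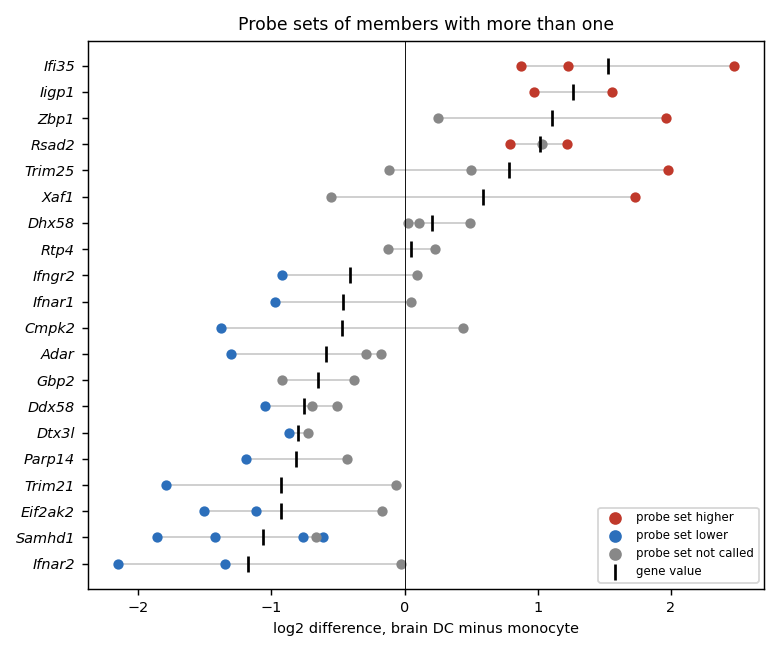
Each point is the log2 difference, brain DC minus monocyte, of 1 probe set of a member that has several, coloured by its call, and the black tick is the gene value used in the text. The points of Ifnar2, Trim21, Trim25 and Xaf1 are spread by more than 1, whereas those of Dtx3l (-0.87 and -0.73) lie close together.

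The members also varied together among arrays of the same group. Of the 3 monocyte arrays, replicate 1 had the highest value for 34 of the 41 members (82.9%), where it was highest for 35.0% of all genes, and replicate 2 had the lowest value for 30 members (73.2%), beside 37.8% of all genes. Replicate 1 was the lowest for 0 members, beside 27.7% of all genes. The median difference between monocyte replicates 1 and 2 was 0.47 over the members and 0.02 over all genes. The members with the widest range among monocytes were Oas2 (1.96), Ifit1 (1.82), Ifngr1 (1.49), Oas1a (1.48), Oasl2 (1.32) and Usp18 (1.27). In brain DCs, replicate 2 was above replicate 1 for 29 members (70.7%), beside 52.6% of all genes, by a median of 0.29 against 0.02. The median SD of a member was 0.38 in monocytes and 0.22 in brain DCs, where over all genes both were 0.14, so the median SE of a member was 0.23 beside 0.15 over all genes. These are descriptions of 5 arrays, with no test, and the members are not independent of each other. Monocyte replicate 1 also stood apart in some genes of granules and their precursors, with lower values than replicates 2 and 3. Mpo was at 1.81 against 5.72 and 5.22, and Elane at 0.98 against 2.50 and 2.37. Ngp was at -1.18 against 1.61 and 1.56, and Ms4a3 at 0.08 against 1.78 and 1.10. These genes were singled out after their values were seen. Cd177 (6.86 against 6.59 and 6.96) and Mmp8 (4.87 against 4.19 and 4.90) did not show this. In the 5′ minus 3′ value of Actb, replicate 3 stood apart (-1.60 against -3.99 and -3.98). The part of either in the members' pattern was not tested.

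**Figure D4:**
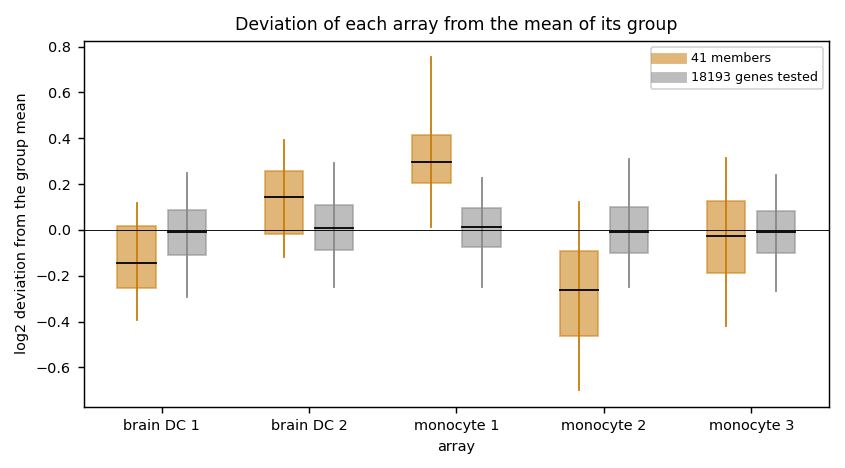
Boxes give the log2 deviation of an array from the mean of its group (box, 25th to 75th percentile; line, median; whisker, 5th to 95th percentile) for the 41 members in orange and the 18193 genes tested in grey. The members' medians are at 0.30 for monocyte replicate 1 and -0.26 for replicate 2, and the medians over all genes stay near 0 on every array.

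Other genes of the pathway were read from lists that hold no member. Of 101 listed genes 72 were measured, and 18 were higher, 13 lower and 41 not called, so 43.1% were called beside the background of 33.8%. Among 10 measured interferon genes, 3 were higher and 1 lower (40.0% called). Ifng, which encodes interferon gamma, was at 2.0 and 0.88 in brain DCs and at -0.15, 0.12 and -0.24 in monocytes. The brain DC arrays differed from each other by more than 1 and both lay above the monocytes (1.53 ± 0.30, limma adjusted p = 0.00713). Natural killer and T cells are known sources of interferon gamma. Of 9 measured markers of these cells 4 were higher in brain DCs, where 16.9% of all genes were. These were Klrd1 (6.29), Klrk1 (4.06), Gzma (2.75) and Gzmb (1.56). Cd3g (0.48), Prf1 (0.27), Cd3e (0.19), Ncr1 (0.10) and Nkg7 (-0.30) were not called. The list's median was 0.26 and 0.53 in the brain DC arrays and between -0.61 and -0.39 in the monocyte arrays, and its part in the Ifng difference was not tested. Ifna1 and Ifna9 (0.54 each) were higher and Ifnz (-0.51) lower; these genes have near-identical copies. Ifnb1, the interferon beta gene, was at 0.50 and not called.

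In interferon signalling, 5 of 15 measured genes were higher and 2 lower (46.7% called, beside 33.8% of all genes). Socs3, a feedback inhibitor of cytokine receptors, was at 3.33 and 3.51 in brain DCs and between -0.51 and -0.43 in monocytes, 14.7-fold higher with close replicates (3.88 ± 0.13, limma adjusted p = 2.8e-06). Irf7, the factor that amplifies type I interferon, was higher by 1.57 ± 0.27 and the kinase gene Jak2 by 0.97 ± 0.15. Jak1, the kinase that both interferon receptors use, was lower by 1.51, at -1.02 and -0.75 against 0.57, 0.34 and 0.97 (-1.51 ± 0.20, limma adjusted p = 0.0012). Stat2 (0.07) and Irf9 (-0.16), partners in the factor that binds the ISRE, were not called.

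Of 6 measured sensor adaptors and kinases 4 were lower and 0 higher by limma (1 at an unadjusted p under 0.05). That is 66.7% called, beside 33.8% of all genes. Ikbke, a kinase that activates interferon regulatory factors, was at -0.71 and 0.26 in brain DCs and at 4.02, 3.54 and 3.43 in monocytes, 14.9-fold lower (-3.89 ± 0.30, limma adjusted p = 9.73e-05). Mavs, the mitochondrial adaptor of RIG-I (-1.19), Ifi203, of the family of DNA-binding interferon-induced proteins (-0.92), and Tbk1, a kinase related to Ikbke (-0.78), were lower too. Of 37 other interferon-induced genes 9 were higher and 5 lower, so the share called (37.8%) was near that over all genes. Bst2, the tether that holds virions on the cell (3.10 ± 0.16), Phf11d (2.62 ± 0.25) and the exonuclease gene Isg20 (2.52 ± 0.23) were higher and Slfn8, a growth regulator of the Schlafen family (-2.06 ± 0.35), lower. Of 4 other GTPases measured, Gbp7 was lower (-2.28 ± 0.31) and Gbp8 higher (2.22 ± 0.31), and 2 were not called.

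**Figure D5:**
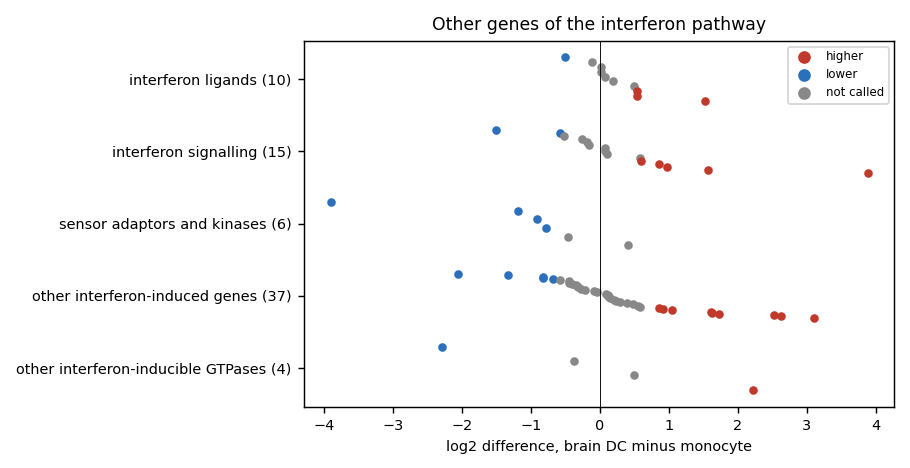
Each point is the log2 difference, brain DC minus monocyte, of a measured pathway gene that is not a member, coloured by its call, with the number of measured genes of each list in parentheses. The sensor adaptors and kinases called are all below 0, down to -3.89 for Ikbke, and the other lists hold calls on both sides.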

How the data were processed

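The authors deposited log2 values, and the submitters' processing notes name RMA; its version, the arrays normalised together and the baseline are not stated there. The log base and the centring are inferred from the values, which lie around 0 in each probe set. Levels and detection above background are lost, so no filter on dim probes and no background correction could be tried. Array medians were between -0.05 and 0.00. Of 45101 probe sets, 64 were controls, 34945 carried 1 gene symbol in the platform annotation, 932 several and 9160 none.

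Probe sets with 1 symbol were averaged per gene (18193 genes) and tested with limma 3.58.1 (lmFit, eBayes without trend) in R 4.3.3 on 2 brain DC and 3 monocyte arrays, with 3 residual and 4.43 prior degrees of freedom. With 2 and 3 arrays the smallest two-sided p of an exact permutation test is 0.1, so none is reported. The number of arrays limits the precision. The members, lists and role groups were chosen with earlier results of these data known. Values in every array are given for up to 5 called members of each role with the largest difference, those called against their list's majority and all receptor chains, and for Ifit1, Ifit2, Ifitm3 and Igtp, chosen after their values were seen; of other pathway lists, up to 4 called genes and fixed signalling genes are named. The 12 alternatives were another summary of probe sets (median, plain probe sets only, each probe set tested), quantile normalisation, centring, robust eBayes, the replicate block and leaving out each of the 5 arrays; plain probe sets are those without a suffix for shared probes. Ranges of adjusted p over the alternatives leave out the test of each probe set. Promoter sequences are RefSeq's, and 11 members had none in the table used.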

Additional observations from a re-analysis of the deposited data

How the results depend on the processing

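Of the 20 called members 10 kept their call and direction in all 12 alternatives: Ifi27l2a, Ifi35, Ifit3, Ifitm2, Samhd1, Eif2ak2, Irgm2, Gbp3, Iigp1 and Ifnar2. Of these, Ifi27l2a, Ifit3, Ifitm2, Irgm2 and Gbp3 have 1 probe set. The alternatives that summarise or test probe sets otherwise left their differences unchanged. No called member changed direction. Leaving out 1 array at a time gave 6 to 12 higher members, 2 to 4 lower effectors, 0 to 1 higher and 0 to 1 lower sensors, 0 to 2 higher and 1 to 3 lower ubiquitin and ADP-ribose enzymes, and 1 to 2 lower receptor chains. With each probe set tested, 4 effectors and 3 receptor chains were lower and 1 enzyme was higher. Plain probe sets only left 0 sensors higher, the median of probe sets left 0 sensors lower, and centring left 1 enzyme higher; limma gave 1 higher and 1 lower sensor at an unadjusted p under 0.05. With the replicate number as a block, 9 members were higher and 8 lower, 0 sensors were lower and 1 enzyme was higher. Same-numbered arrays of the groups deviated together only weakly (r = 0.04 and 0.09), so the numbers are not taken as pairs. Quantile normalisation moved the members' median from 0.05 to 0.26. The cause of these changes was not tested.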
